A study of Drosophila melanogaster with 2 samples.

Results

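GAGA elements are runs of alternating G and A. Of the 3953 peak summits in the authors' thresholded list for l(3)neo38, 329 (8.32%, 95% exact interval 7.48 to 9.23) held such an element. A summit is the position that the authors gave within each peak. It was counted as a member when the 101 bp centred on it held, on either strand, a stretch of at least 7 bases of alternating G and A that began and ended with G. Within the list, this choice used sequence alone and no signal value, so location, signal and replicate agreement could be compared with the other 3624 summits. The summits themselves come from the binding data, and the rule was set with earlier results of these data known.

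The measurements come from chromatin immunoprecipitation with sequencing (ChIP-seq) in 2 biological replicates of Drosophila melanogaster embryos, which form 1 group. The embryos were 0 to 24 h old, of both sexes together, from a transgenic line (strain l(3)neo38-GFP) whose l(3)neo38 protein carries eGFP at its C-terminus, and the antibody recognised GFP. This age range takes in the whole of embryogenesis, so each value averages over stages and tissues. Untagged embryos, other stages and antibodies to other proteins were not analysed here, so a gene named below has a peak, and no more is shown. The lists give no read counts, so depth is unknown, and all intervals cover counting error over peaks only.

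In Drosophila, GA repeats are bound by GAGA factor, the product of Trl, which recruits chromatin remodellers, keeps promoter DNA open and is found at genes with paused RNA polymerase. Other proteins also read such repeats, among them Psq, which binds GAGA-type sites at Polycomb targets, and CLAMP, which binds longer GA runs and helps recruit the dosage compensation complex to the male X chromosome. l(3)neo38 itself encodes a zinc finger protein. Which protein occupied the elements described here was not measured.

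The sequences below, all from release 6 (dm6) and read on the plus strand, show what the members look like; capitals mark each alternating stretch, and CT runs are the same element on the minus strand. The first 3 are the strongest members, the next 6 lie at promoters of developmental regulators, and the last holds a 29-base stretch. They cover chr3R:17712960-17713060 (osa), chr3R:11773972-11774072 (l(3)neo38), chr3R:7103542-7103642 (Alh), chrX:7307663-7307763 (brk), chr3R:16242589-16242689 (tara), chrX:17768330-17768430 (unc-4), chr3R:29556203-29556303 (Dr), chr2L:5461327-5461427 (mid), chr3L:17999969-18000069 (Eip75B) and chr3R:11648950-11649050 (Csk).
osa: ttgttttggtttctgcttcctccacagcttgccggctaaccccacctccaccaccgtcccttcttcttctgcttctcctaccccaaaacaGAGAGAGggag
l(3)neo38: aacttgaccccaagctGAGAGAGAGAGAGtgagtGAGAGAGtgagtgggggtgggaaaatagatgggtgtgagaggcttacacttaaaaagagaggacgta
Alh: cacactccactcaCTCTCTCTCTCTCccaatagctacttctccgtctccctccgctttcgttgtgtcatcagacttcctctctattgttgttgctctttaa
brk: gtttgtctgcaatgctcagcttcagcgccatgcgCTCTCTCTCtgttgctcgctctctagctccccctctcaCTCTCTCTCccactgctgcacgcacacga
tara: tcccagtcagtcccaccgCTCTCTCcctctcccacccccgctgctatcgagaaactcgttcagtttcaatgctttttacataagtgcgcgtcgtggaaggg
unc-4: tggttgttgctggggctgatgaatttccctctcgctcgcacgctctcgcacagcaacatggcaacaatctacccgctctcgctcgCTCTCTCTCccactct
Dr: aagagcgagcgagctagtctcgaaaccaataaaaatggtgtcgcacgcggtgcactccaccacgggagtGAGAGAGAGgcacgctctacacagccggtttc
mid: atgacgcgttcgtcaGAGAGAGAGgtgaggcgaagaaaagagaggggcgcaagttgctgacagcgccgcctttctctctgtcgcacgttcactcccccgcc
Eip75B: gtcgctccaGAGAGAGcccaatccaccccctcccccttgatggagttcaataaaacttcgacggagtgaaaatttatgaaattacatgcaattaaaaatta
Csk: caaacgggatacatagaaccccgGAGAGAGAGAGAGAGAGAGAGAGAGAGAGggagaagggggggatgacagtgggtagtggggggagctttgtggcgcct

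Most members held a short element. Of the 329, 189 had a longest stretch of exactly 7 bases, 63 one of 9 bases and 77 one of 11 bases or more, up to 29 bases, as at Csk. One element stood alone in 260 members, and 69 (21.0%) held 2 or more, as brk and l(3)neo38 do. The windows held 406 elements in all. No member window overlapped another, and 4 members lay within 250 bp of another member.

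Just outside the rule were 744 other summits (20.5% of them) whose longest stretch was 5 bases, among them the strong peaks at erm and kay. The window of the erm summit, chr2L:1970594-1970694, is shown for contrast and holds such a 5-base stretch near its start.
erm: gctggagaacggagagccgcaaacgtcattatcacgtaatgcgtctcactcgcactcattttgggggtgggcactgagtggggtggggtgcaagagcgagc
Members with a longest stretch of 7 bases had a median signal of 239.2 and a promoter share of 39.7%. The 744 summits with 5 bases had a median signal of 219.7 and a promoter share of 34.5%. The 2880 summits with neither had 204.5 and 31.4%. Within these other summits, 62, whose median signal was 212.6, missed the rule by position alone, with an element within 60 bp that reached past the 50-bp limit.

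GAGA elements were more frequent at thresholded summits than in sequence nearby. Windows of the same width centred 350 bp towards higher coordinates held an element in 109 of 3953 cases (2.76%). The element was present at the summit alone in 312 cases and at the flank alone in 92 (exact McNemar test, two-sided, p = 4.4e-29). On the other side, 3.64% of flanks held one. Among the 24568 weaker entries of the pooled list, 666 (2.71%) held an element; the odds ratio of thresholded against weaker entries was 3.26 (95% interval 2.83 to 3.74, two-sided Fisher's exact test, p = 7.9e-56). Of all 101-bp tiles of the 6 chromosome arms, 1.24% held one. Each replicate's own strongest 3953 entries gave nearly the same share as the pooled list, 8.07% in replicate 1 and 8.60% in replicate 2.

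The elements were not centred on the summit. A window centred only 101 bp away, directly beside the summit window, held an element in 8.30% of cases against 8.32% at the summit itself (exact McNemar test, p = 1). At 202 bp the share was 5.11% (exact McNemar test, p = 7.03e-09). Both of these flanks were chosen after seeing the data. In 50-bp bins, the number of elements per 100 summits was 5.34 at 100 to 50 bp below the summit, 5.36 and 5.16 in the bins on either side of it, and 5.44 at 100 to 150 bp above, falling to 1.21 at 400 to 450 bp. The C-rich word CCCACCCC, counted in the same way, stood in a narrower peak. It had 3.69 and 3.16 per 100 summits in the bins beside the summit. It had 1.4 at 100 to 50 bp below the summit, 2.1 at 50 to 100 bp above and 0.481 at 100 to 150 bp above. This word led an earlier search of these data, so its profile is not an independent comparison. The broad shape of the GAGA profile was present at promoter summits, where it reached 7.42 per 100, and at summits over 2000 bp from any start, where it reached 4.11.

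**Figure D1:**
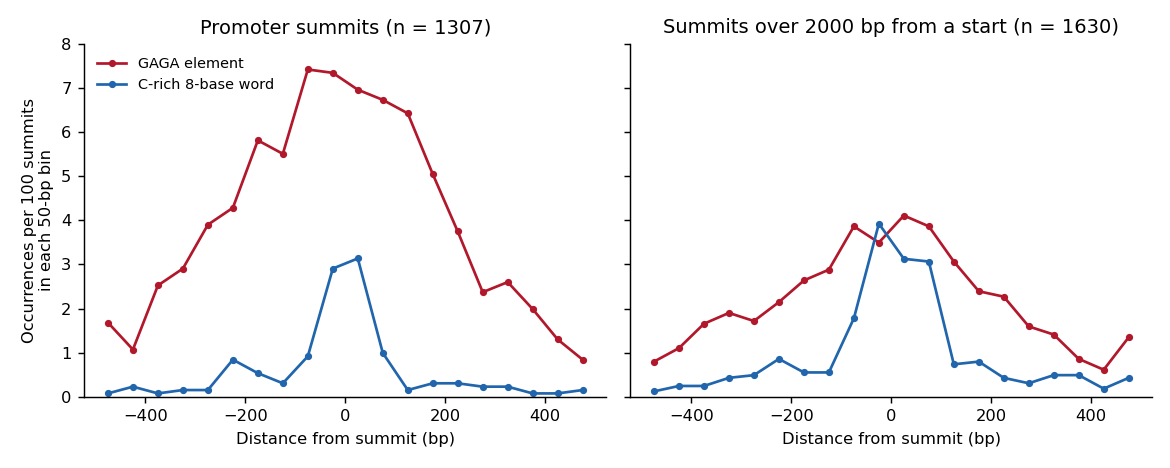
Occurrences per 100 summits in 50-bp bins (y axis) by distance from the summit in bp (x axis, towards higher coordinates on the right), for the GAGA element and for CCCACCCC, at promoter summits (left) and at summits over 2000 bp from any transcript start (right). GAGA elements form a broad rise, up to 7.42 and 4.11 per 100, whereas CCCACCCC, a word that led an earlier search of these data, is concentrated within 100 bp.

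Members also carried more elements in the sequence around them. Outside the window used by the rule, at 51 to 150 bp on either side, 103 members (31.3%, interval 26.3 to 36.6) held a further element against 13.5% of the other summits (odds ratio 2.92, interval 2.25 to 3.78, Fisher's exact test, adjusted p = 2.91e-14). These p-values were adjusted over the 9 comparisons between members and other summits. At promoters the shares were 37.7% and 16.6%, and over 2000 bp from any start 28.0% and 9.41%. The word CCCACCCC was counted after alternating stretches of 5 or more bases were masked. Masking left a median of 86 bases in member windows and 101 in the others, which lowers the count in members. On this count, 17 member windows (5.17%) and 6.37% of the others held the word. The odds ratio was 0.800, with an interval of 0.452 to 1.33 (Fisher's exact test, adjusted p = 0.476). The tara window shown above holds the word across the edge of a masked stretch and was not counted. The 17 members counted with the word had a median signal of 357.3 (range 149.5 to 1170), and they include l(3)neo38, eff, kn and ash2. The median was 235.9 for the 312 other members and 238.7 for the 231 other summits with the word. Of the 17, 11 (64.7%) were promoter summits, and the difference in signal was not tested.

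Members lay at promoters more often than the other summits did. A promoter summit is one within 500 bp of an annotated transcript start: 146 members (44.4%, interval 38.9 to 49.9) were such summits, against 32.0% of the others (odds ratio 1.69, interval 1.34 to 2.14, Fisher's exact test, adjusted p = 4.31e-05). Intergenic members were fewer, 44 (13.4%) against 21.2% (odds ratio 0.574, exact test, adjusted p = 0.00107). The intronic share was 38.3% (126 members) against 42.7%, which did not pass (odds ratio 0.834, interval 0.656 to 1.06, exact test, adjusted p = 0.167). The 13 members in exons lay in 5′ UTR (5), 3′ UTR (6) or non-coding exons (2), and none of the 25 summits in coding exons was a member. Read the other way, 11.2% of promoter summits, 7.54% of intronic and 5.42% of intergenic summits held an element. The shares were higher in the small classes 5′ UTR (5 of 41, 12.2%) and 3′ UTR (6 of 30, 20%). The element itself is unevenly spread in the genome: 2.56% of 5′ UTR tiles held one, 1.77% of promoter, 1.38% of intronic, 1.32% of 3′ UTR, 1.10% of intergenic and 0.485% of coding tiles. Members were also richer in G and C (median 53.5%) than other summits (50.5%). Among the 228 members in the central range of GC content (43.6% to 56.4%), the promoter share was 42.1% against 27.4% (exact test, adjusted p = 2.69e-05).

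**Figure D2:**
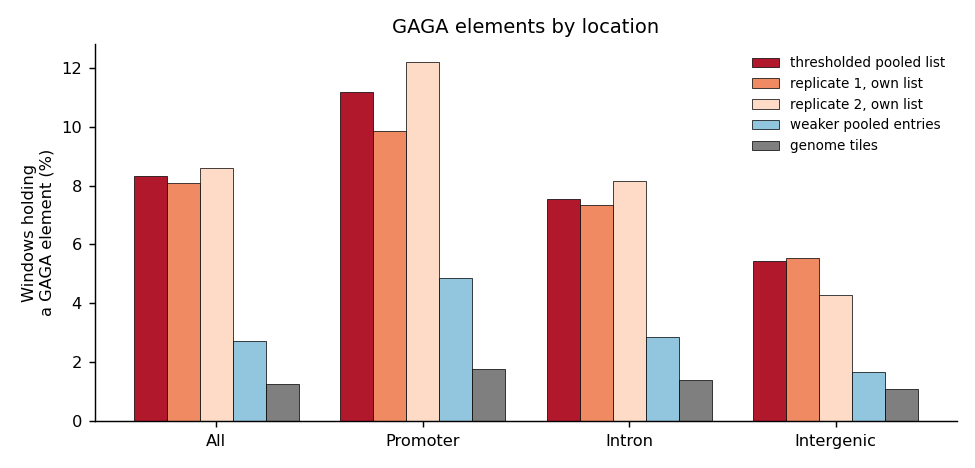
Percentage of 101-bp windows holding a GAGA element (y axis) for all windows and for promoter, intronic and intergenic ones (x axis), in the thresholded list, the strongest entries of each replicate, the weaker pooled entries and tiles of the whole genome. In every one of these classes the weaker entries lie between the thresholded summits and the tiles. Promoters are the highest of the locations shown in each set. The small 5′ UTR class, not shown, had a higher share in each set (5 of 41, 12.2%, in the thresholded list).

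At promoters, members sat further from the start than other promoter summits. Their median distance was 208.5 bp against 181 bp, and 24 of 146 (16.4%) lay within 100 bp of a start against 27.9% of the other promoter summits (odds ratio 0.508, interval 0.308 to 0.810, Fisher's exact test, p = 0.00277, adjusted p = 0.00832 over 3 comparisons chosen after the values were seen). The share upstream of the start, 74.0% against 66.0%, did not pass (exact test, adjusted p = 0.0926), nor did the share nearest to a coding gene, 86.3% against 85.4% (exact test, adjusted p = 0.901). Of the 182 elements in these windows, 133 were upstream of the start, 82 of them at 101 to 300 bp and 25 within 100 bp. Their median position was 144.5 bp upstream. Around all 19252 coding transcript starts, elements were most frequent somewhat closer, with 4.23 per 100 starts in the first 100 bp upstream, 4.0 at 100 to 200 bp, 2.32 at 200 to 300 bp, and 1.41 in the first 100 bp downstream. The strand of the element could not be told from an even split at member promoters: GA ran along the sense strand of the nearest start in 68 of 141 (48.2%, interval 39.7 to 56.8, exact binomial test, p = 0.736), and 5 promoters that held it on both strands were left out.

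**Figure D3:**
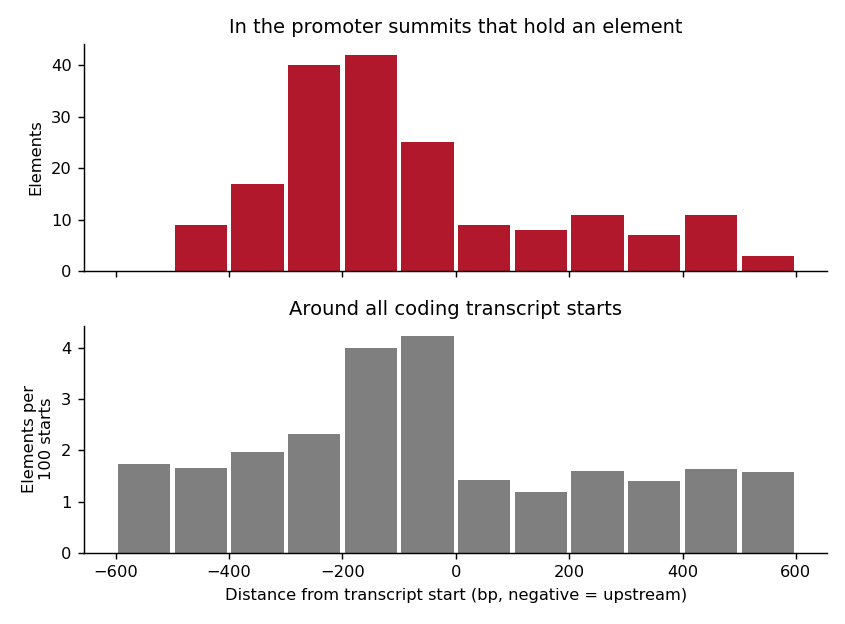
Number of GAGA elements in the windows of the 146 member promoter summits (top, y axis) and elements per 100 starts around all 19252 coding transcript starts (bottom, y axis), in 100-bp bins of distance from the start (x axis, negative values upstream). In the member windows 82 of 182 elements fall 101 to 300 bp upstream; around all coding starts the first 200 bp upstream are highest.

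Peaks at members were stronger. The signal value is the authors' peak strength, in units not given in the sources used here, and serves to rank peaks within the pooled list. The median signal of members was 236.5 (range 141.2 to 1343) against 207.6 for other summits, and 198 members (60.2%, interval 54.7 to 65.5) were above the median of the list against 49.1% of the others (odds ratio 1.57, interval 1.24 to 1.99, Fisher's exact test, adjusted p = 0.000251). In 5 equal parts of the list from strongest to weakest, 11.8%, 8.98%, 7.98%, 6.45% and 6.45% of summits held an element. The medians were higher in each location: 257.7 against 224.5 at promoters, 226.8 against 202.1 in introns and 231.6 against 199.9 between genes. Within promoters alone (63.0% against 55.2% above the median; exact test, adjusted p = 0.154) and over 2000 bp from any start (54.0% against 44.4%; exact test, adjusted p = 0.116) the difference kept its direction but did not pass. Among members, the median signal did not rise steadily with the longest stretch. It was 239.2, 270.3 and 216.4 for stretches of 7, 9 and at least 11 bases (189, 63 and 77 members), which was not tested.

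**Figure D4:**
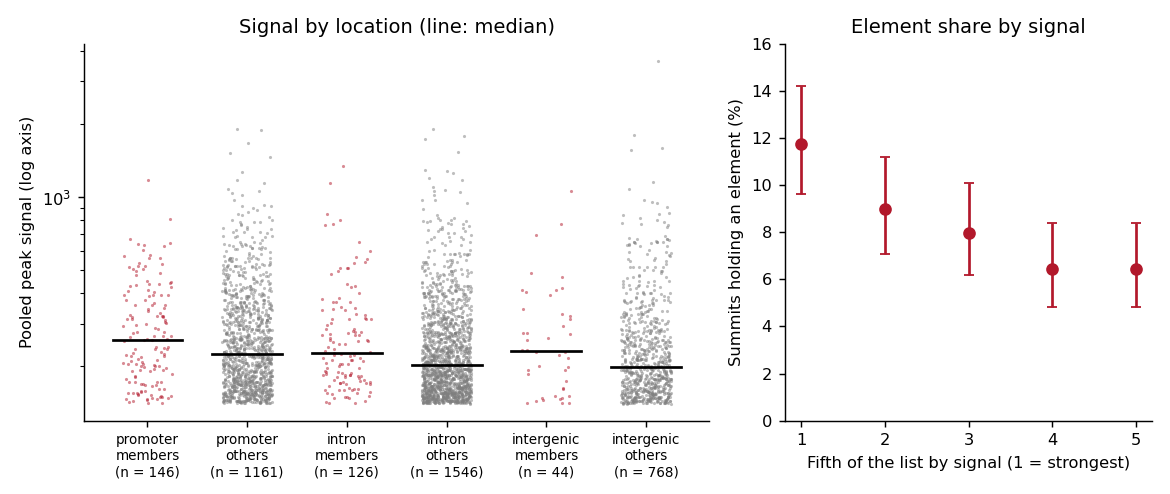
Left, pooled peak signal (y axis, log scale) of each member and each other summit by location, with the median as a line. Right, percentage of summits holding an element (y axis) in 5 equal parts of the list by signal (x axis, 1 is the strongest), with 95% exact intervals; it falls from 11.8% to 6.45%.

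Members were also found more often in both replicates. A summit lay within 100 bp of one of the strongest 3953 entries of both replicates for 239 members (72.6%, interval 67.5 to 77.4) and for 60.8% of the other summits (odds ratio 1.71, interval 1.33 to 2.23, Fisher's exact test, adjusted p = 5.58e-05). Replicate 1 held 291 members and replicate 2 held 272, and 5 were in neither. With all 30000 entries of each replicate list, 93.0% of members and 90.8% of others were matched, which did not pass (odds ratio 1.36, exact test, unadjusted p = 0.192). Among peaks above the median signal the shares were 92.9% and 88.9%, which did not pass either, at a similar odds ratio of 1.65 (exact test, adjusted p = 0.161). Across the 306 members with a value in both replicate lists, Spearman's rank correlation between the 2 signals was 0.721, and across 3289 others it was 0.529. These describe peaks that share the same 2 libraries, and peaks are not independent replicates.

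**Figure D5:**
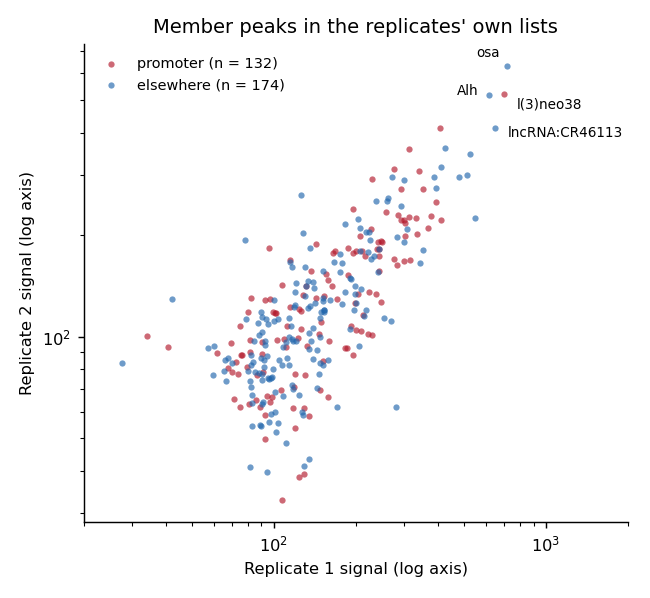
Signal in the list of replicate 1 (x axis, log scale) against that of replicate 2 (y axis, log scale) for the 306 members with an entry in both, with promoter members (132) and the rest (174) as separate colours. The strongest members, osa, l(3)neo38, Alh and lncRNA:CR46113, are at the top of both replicates.

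On the X chromosome, 74 summits were members, 10.6% of the summits there against 7.84% on the autosomes. That is 22.5% of members against 17.3% of other summits (odds ratio 1.39, interval 1.04 to 1.84, Fisher's exact test, adjusted p = 0.0292). The element is also more common on the X in the genome at large, in 1.51% of tiles against 1.18% on autosomes. The odds ratio was larger with a 9-base stretch (1.84, exact test, adjusted p = 0.00672) and over 2000 bp from any start (1.88, exact test, adjusted p = 0.0281). It did not pass with a 5-base stretch (odds ratio 1.02, exact test, adjusted p = 0.851), at promoters alone (1.13, exact test, adjusted p = 0.678) or among peaks above the median signal (1.30, exact test, adjusted p = 0.240). The share with a further summit within 250 bp did not pass, at 17.9% against 15.5% (odds ratio 1.19, interval 0.868 to 1.61, exact test, adjusted p = 0.302).

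The strongest member lay in an intron of osa, which encodes a subunit of the Brahma remodelling complex, at 3R 17712394 to 17713330. Its signal was 1343, the 14th of the list, with 716.7 in replicate 1 and 631.9 in replicate 2. The member at the l(3)neo38 promoter had a signal of 1170, with 701.1 and 519.6 in the replicates. It was the one member among 12 summits at that gene. Next came an intron of Alh, a chromatin protein gene, with 1137 (620.0 and 517.1). These 3 ranked between 8th and 34th in the replicates' own lists, so both libraries placed them near the top.

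Several of the other strongest members lay at developmental regulators, described first here, and the rest follow. The promoter peak of brk, which encodes a repressor of Dpp target genes, was 807.5 (406.2 and 413.0), 226 bp upstream of the start. The intergenic peak by salm, a zinc finger gene of wing and tracheal patterning, was 775.9, but its replicates differed more, with 550.3 and 223.5. Promoter peaks followed at tara, a cell cycle and Polycomb/trithorax-related gene, with 667.9 (312.9 and 359.2), at the eye determination gene eya with 643.6 (342.0 and 309.0), at the homeobox genes unc-4 with 636.8 (393.6 and 249.2) and Dr with 631.7 (411.5 and 221.5), and at kn, the fly Collier/EBF factor, with 628.4 (352.8 and 273.0). The rest of the 20 strongest lay nearest to CG11811, Lk6, mir-1013, eff, Ppa, Su(z)2, retm, AcCoAS, lncRNA:CR46113 and lncRNA:CR44904, between 595.7 and 1054.

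None of the 6 summits within 2000 bp of Trl, the gene of GAGA factor, was a member. With 8.32% of all summits being members, 6 summits are too few to read this absence. The strongest of them, with a signal of 1195 and rank 19, lay at 3L 14759150 to 14759756 in an intron. Its nearest start was that of CG42507, and it held no alternating stretch of 5 bases. An intron of psq, the gene of Pipsqueak, held a member of signal 537.0 (352.7 and 179.8), named after its value was seen. CLAMP, likewise named afterwards, was the nearest gene of no member. An intron of trx, which encodes the Trithorax methyltransferase, held a member with a 19-base stretch and a signal of 437.9 (224.5 and 204.3).

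The members with the longest stretches varied widely in strength, with signals from 147.7 to 558.9 among those named here. Csk, a kinase that restrains Src, had a 29-base stretch under an intronic peak of 479.1 (283.2 and 196.8). Stretches of 23 bases lay at chinmo, a temporal identity gene, with 223.2, at CG16721 with 163.2 and at Sox21a, a Sox factor gene, with 147.7. Stretches of 21 bases lay at lncRNA:CR44034, CG43693 and lncRNA:CR46259, with signals between 277.8 and 314.9. The 7 members with 19 bases, all named here because they tie, were lncRNA:CR45915 with 558.9, trx with 437.9, disco-r with 322.2, Imp with 254.1, CG43245 with 232.9, ash2 with 205.4 and dome with 201.6.

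Among 13945 protein-coding genes, 1149 (8.24%) had a thresholded promoter summit and 130 (0.932%) had one that was a member, so 11.3% of the genes with a promoter summit had a GAGA one. For 19 of the 130, a stronger promoter summit without the element lay at the same gene. The following lists were described against these shares without a test, and some genes stand in more than 1 list.

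Of 29 segmentation genes, which divide the embryo along its length, 16 had a promoter summit and 5 a member one. They were the T-box gene mid with 526.9 (335.1 and 200.7), the head gap genes oc with 426.7 (249.3 and 190.9) and btd with 305.7 (164.0 and 140.9), the gap gene hb with 276.6 (114.2 and 168.7), and inv with 146.8. The peak at inv was the weakest, had no entry in replicate 2, and lay at a gene with a stronger promoter summit that lacked the element. Of 22 dorsoventral regulators, 9 had a promoter summit and 3 a member one: brk, Dr and the mesodermal repressor sna with 288.0 (157.8 and 146.5). Of 8 Hox genes, 6 had a promoter summit and Scr alone a member one, with 203.3 (108.7 and 98.3).

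Among 15 genes of the ecdysone and juvenile hormone response, 9 had a promoter summit and 3 a member one. They were the nuclear receptor genes Eip75B with 276.5 (194.6 and 88.4) and Hr3 with 211.2 and the ETS factor gene Eip74EF with 200.3 (110.5 and 92.9). The peak at Hr3 was nearest to a start of CG46321. At Eip75B a stronger promoter summit lacked the element. Of 27 neural progenitor and proneural genes, 11 had a promoter summit and 3 a member one: erm with 331.0, pdm2 with 209.3 and cato with 203.8. At erm and pdm2 a stronger promoter summit lacked the element. Of 36 C2H2 zinc finger genes, 21 had a promoter summit and 5 a member one, l(3)neo38, btd, sna, hb and chn. The peak at chn, with 177.6, had no entry in replicate 2.

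In the remaining lists at most 3 genes had a member promoter summit. Of 46 Iroquois, TALE and further homeobox genes, 27 had a promoter summit and 3 a member one, unc-4, caup with 474.9 (303.5 and 198.2) and hbn with 393.4 (216.9 and 173.3). Of 22 Notch pathway and Enhancer of split genes, 12 had a promoter summit and E(spl)mbeta-HLH alone a member one, with 517.0 (228.5 and 293.1). Of 28 trithorax group and remodelling genes, 11 had a promoter summit and ash2 alone a member one, with 205.4 (130.4 and 76.8) and a 19-base stretch. Of 18 GATA, forkhead and gut genes, 10 had a promoter summit and croc, a forkhead gene, a member one with 436.8 (276.3 and 169.1). Of 20 cytoskeleton genes, 6 had a promoter summit and the tropomyosin gene Tm1 a member one with 348.6 (165.4 and 176.5), beside a stronger promoter summit that lacked the element.

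Of 20 Polycomb complex genes, 4 had a promoter summit and 2 of these a member one, Su(z)2 with 256.5 and ph-d with 142.0, and at both a stronger promoter summit lacked the element. At ph-d the replicates differed, with 107.5 and 32.8. None of the 5 heat shock and stress genes with a promoter summit (of 24), and none of the 4 insulator genes with one (of 21), had a member there. Heat shock promoters are classic sites of GAGA factor; 5 promoter-bound genes are too few for a share.

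Several genes held more than 1 member in or within 2000 bp of the gene body. Those named here were picked for having the most members. Over all summits, 8.32% were members. Eip75B and lncRNA:CR44357 had 5 each, among 17 and 28 summits. The 5 at Eip75B ranged from 149.1 to 276.5. lncRNA:CR44357 is 239.3 kb long, spans brk and overlaps part of Cph, and their members, such as the brk promoter, are among its 5. InR, the insulin receptor gene, had 4 among 12, from 168.6 to 314.9. Of these, the peak of 314.9 was nearest to a start of lncRNA:CR44034 and that of 272.2 to a start of lncRNA:Irar. Genes with 3 were CG1677, Smr, Tlk, puc, tara and zfh1. CG1677 lies within lncRNA:CR44357, and its 3 members are among the 5 of that gene. At zfh1, a zinc finger homeobox gene, 3 of the 4 summits were members, with signals of 393.2, 366.5 and 280.9. At puc, a phosphatase gene of the JNK pathway, 3 of 4 were, with 558.2, 258.8 and 151.9. The peaks of 558.2 and 258.8 were promoter summits of lncRNA:CR44331, which lies within the puc gene body.

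Member windows also differed from the others in short words outside the element. With all alternating stretches of 5 or more bases masked, 74 of 2031 6-base words (3.64%) differed between members and other summits (Fisher's exact test with adjustment over all words). Of these, 16 were more frequent in members, and 12 of the 16 had at most 1 base other than G and A on 1 strand, as had 434 of all 2031 words tested. GAGCGA was in 18.2% of members against 7.29% of the others (exact test, adjusted p = 1.38e-06) and GGGAGA in 10.9% against 3.39% (exact test, adjusted p = 1.19e-05), and both passed among windows of central GC content too. The 58 less frequent words include AAATAT with 3.04% against 11.6% (exact test, adjusted p = 5.85e-05) and AGGGGC with 1.22% against 7.75% (exact test, adjusted p = 0.000161). Masking left a median of 86 bases to search in members against 101 in the others, which lowers every count in members. In the sequence 51 to 150 bp away, 0 of 2064 words differed.

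In the same masked windows, which left fewer bases to search in members, 4 of 24 known motifs (16.7%) differed, all less frequent in members. They were the homeodomain core TAATTA (0% against 3.78%, exact test, adjusted p = 0.000246), a run of 7 A (2.43% against 6.49%, exact test, adjusted p = 0.0206), TATAAA, the TATA box (3.65% against 7.78%, exact test, adjusted p = 0.0334), and GGGCGG, the GC box of Sp1/KLF factors (6.99% against 11.7%, exact test, adjusted p = 0.0494). Among windows of central GC content only GGGCGG passed (4.39% against 11.1%, exact test, adjusted p = 0.0198), and at 51 to 150 bp none did, where TAATTA was in 6.38% and 6.79%. Both of these comparisons were chosen after seeing the data. A match to a motif describes letters in the window and not a bound site.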

How the data were processed

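Per the deposited descriptions, the authors made 1 list of peaks and background entries from each replicate and a control, 1 from both replicates pooled, and the thresholded list by the irreproducible discovery rate procedure. Per the labels, chromatin was sonicated to 200 to 800 bp. The signal of each entry is the peak strength the authors deposited; the scaling, the caller and the threshold were not given in the sources used here. Lists on dm3 were not used. Depth is unknown.

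Windows of 101 bp around summits were read from the RefSeq release 6 genome. Locations used Ensembl 115, without transposable elements, with promoter taking precedence over exon, exon over intron, and intron over intergenic. A gene counted as having a promoter summit if any start of its transcripts had a summit at most 500 bp away; other summits were assigned to the nearest start. Shares were compared by two-sided Fisher's exact test (conditional odds ratio) with Benjamini-Hochberg adjustment at 0.05 over 9 comparisons, with exact Clopper-Pearson intervals, in Python 3.11.15 with numpy 2.4.6, pandas 2.3.3, scipy 1.17.1 and matplotlib 3.10.9. In subsets and alternatives, the adjustment covered only the comparisons run there, which were fewer in some. The steps were tested on simulated data. Members, the 14 gene lists (318 names, 9 matched through older symbols, 1 not found) and the tests were chosen with earlier results of these data known. Named genes are l(3)neo38, Trl, those nearest to the 20 strongest members, the 10 longest stretches, up to 4 per list by signal (inv and chn, the fifth of their lists, are named besides), and the 6 with most members, with ties for the last place; other exceptions are stated, and 1 gene is not reported here. Peaks are not replicates, so p-values say nothing of the spread between embryos. Alternatives covered the stretch, window, flank, threshold, promoter distance, match distance, clusters, GC content and each replicate's own list.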

Additional observations from a re-analysis of the deposited data

How the results depend on the processing

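The promoter share, the excess over weaker entries and the excess of elements 51 to 150 bp away kept their direction and passed in each alternative run for them, of which the 100-bp window overlaps the sequence searched for the last. The following did not. With stretches of at least 5 bases, the X odds ratio was 1.02, that of a further summit within 250 bp passed at 1.24, and 189 words differed. With 9 bases, the intron ratio passed at 0.681 and the further-summit ratio at 1.62, CCCACCCC turned to 1.16, the sense-strand share was 53.5%, and 11 words and 0 motifs differed. With windows of 25 bp to either side, 0 words and 0 motifs differed. With 100 bp, the intron ratio passed at 0.832, the further-summit ratio at 1.29 and CCCACCCC at 0.617, the sense-strand share was 51.1%, and 138 words and 1 motif differed. Among peaks above the median signal, ratios that no longer passed were 0.615 (intergenic), 1.44 (signal), 1.65 (both replicates) and 1.30 (X), and 17 words and 1 motif differed. At promoter summits alone they were 1.38 (signal), 1.53 (both replicates) and 1.13 (X), and CCCACCCC turned to 1.42. Over 2000 bp from a start the signal ratio was 1.47, and with all replicate entries the match ratio was 1.36. Chosen after seeing the data, a flank 101 bp away gave a ratio of 1.00, sequence 51 to 150 bp away gave 0 words and 0 motifs, and central GC content 24 words and 1 motif. The cause of these changes was not tested, except that smaller sets hold fewer members.

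With the strongest entries of a single replicate instead of the pooled peaks, the number of words ranged from 38 (replicate 2 alone) to 117 (replicate 1 alone) and the sense-strand share from 44.8% to 55.2%, passing in neither, and the promoter odds ratio from 1.44 to 1.84. No paired analysis was possible because there is 1 group. Without read counts or a negative control list, signal values cannot be given a counting error.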

Other observations

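Elements also occurred among the weaker pooled entries, outside the thresholded list. The 666 entries with an element had a median signal of 64.6 against 48.9 for the other weaker entries. The strongest of them, an intergenic entry nearest to lncRNA:CR43298 (140.3) and an intronic one nearest to SNF4Agamma (140.2), lay just under the weakest thresholded member, followed by promoter entries at wdb and wapl (139.4 each); these were named after their values were seen. Of the weaker entries at promoters 4.86% held an element, of those in introns 2.85%, of those between genes 1.66% and of those in coding exons 0.420%. These locations stood in the same order in the thresholded list. In 5′ UTR the share was above that at promoters, at 7.92% (16 of 202). The 3′ UTR share was below that at promoters, at 2.81% (9 of 320), unlike in the thresholded list, where it was 20% (6 of 30).

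Members on the X had a median signal of 218.3 (74 summits) and members on autosomes one of 247.1 (255 summits), and 37.8% and 46.3% of them were promoter summits. Chromosome 4 had 11 summits and no member. By arm, the share of summits with an element ran from 7.17% to 8.99% on the large autosome arms. These values were not tested.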
